A study of Rattus norvegicus with 28 samples.

Results

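The expression of 9 genes that run mitosis was examined in the tibialis anterior, the muscle at the front of the shin, of rats in which the vitamin D receptor (VDR) was overexpressed or targeted for knock-down. The genes were the cyclins Ccna2 and Ccnb1, the kinases Cdk1, Plk1 and Pkmyt1, and the checkpoint and anaphase genes Cdc20, Bub1b, Mad2l1 and Pttg1. They were chosen by name and matched to the count files by the Ensembl identifier that the study's list of genes pairs with each symbol, and they are 9 of 32883 genes counted. RNA-Seq had been carried out on 28 muscles from 14 rats. In 7 rats (416 to 422) the right leg received the VDR overexpression plasmid (VDR-OE), named pCAGGS-mVDR in the labels, and the left leg of the same rat received empty pCAGGS (empty vector, VDR-OE control). In the other 7 rats (423 to 429) the right leg received an shRNA against VDR (VDR-KD) and the left leg a scramble shRNA (VDR-KD control). All legs were electroporated, a method that reaches only part of the fibres of a muscle. Per the study's methods the rats of the VDR-OE arm were male Wistar rats, 8 weeks old at arrival, with muscles taken 10 days after electrotransfer. The age and time of the VDR-KD arm were not given in the sources used here. The study's methods name another plasmid backbone than the labels, and the labels call the knock-down a knock-out. Treatment was always in the right leg, so side and treatment cannot be told apart.

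Entry into mitosis is driven by cyclin-dependent kinase 1, the product of Cdk1, once it is bound to a cyclin A or cyclin B partner. The kinase encoded by Pkmyt1 holds the complex in check, and polo-like kinase 1 promotes its release and organises the spindle. The spindle checkpoint proteins encoded by Mad2l1 and Bub1b keep CDC20 from switching on the anaphase-promoting complex until chromosomes are attached, after which securin, encoded by Pttg1, and cyclin B are degraded. These genes are transcribed mainly in dividing cells. Nuclei inside adult muscle fibres do not divide, while satellite cells, immune cells and fibroblasts of the muscle can.

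Total counts per muscle ran from 36684220 to 46312167, and no pair of libraries in a group agreed within sampling noise. Vdr, the targeted gene, reached 201 to 5938 normalised CPM (read counts scaled to the library size) in 6 of 7 VDR-OE legs, against 1.91 to 6.73 CPM in empty vector legs. The library labelled VDR-OE of rat 419 held 5.45 CPM of Vdr against 5.75 CPM in its control leg, which goes against its label, and results are therefore also given without this rat. Vdr lay between 1.94 and 6.54 CPM in VDR-KD legs and between 1.39 and 8.12 CPM in scramble legs, with a fitted log2 difference of -0.25 ± 0.41 (SE, adjusted p = 0.929), so that a knock-down was not detectable in these libraries. The tissue label could not be checked by gene name, since none of the 11 listed muscle fibre markers had a symbol in the sources used here.

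Promoter sequence from RefSeq (rat build GRCr8) was used for 7 of the 9 genes. The promoters of Ccna2 and Pkmyt1 were not analysed here. Cell cycle genes of the G2 and M phases are known to carry the cell cycle homology region (CHR, here TTTGAA or TTCGAA) near a CCAAT box, and both were searched on both strands of the 250 bases before the transcription start. The 4 promoters below are shown over the 120 bases before the start because 3 of them hold both motifs and the fourth holds a pair of CCAAT boxes with no CHR. Capitals mark TTTGAA and CCAAT, or TTCAAA and ATTGG where they lie on the other strand, and no CHR overlapped a CCAAT box.
Cdk1 (chr20:19265173-19265292, plus strand): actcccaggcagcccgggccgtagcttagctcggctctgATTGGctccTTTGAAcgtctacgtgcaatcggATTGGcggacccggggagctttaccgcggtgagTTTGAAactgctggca
Cdc20 (chr5:137255800-137255919, minus strand): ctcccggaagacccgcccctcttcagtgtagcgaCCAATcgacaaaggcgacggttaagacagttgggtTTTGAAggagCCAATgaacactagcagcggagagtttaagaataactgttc
Pttg1 (chr10:28406327-28406446, minus strand): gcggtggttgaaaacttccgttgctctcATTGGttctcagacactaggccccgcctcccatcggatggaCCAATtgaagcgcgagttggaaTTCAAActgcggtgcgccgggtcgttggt
Ccnb1 (chr2:33655226-33655345, minus strand): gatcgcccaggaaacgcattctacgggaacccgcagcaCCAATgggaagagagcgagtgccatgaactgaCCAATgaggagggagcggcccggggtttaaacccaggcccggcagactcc
A CHR was found in 4 of the 7 promoters (Bub1b, Cdc20, Cdk1 and Pttg1), and in 17.3% of 27457 rat promoters of the same length. A CCAAT box was found in 5 of 7 (Ccnb1, Cdc20, Cdk1, Plk1 and Pttg1), against 34.3% of all promoters. Both motifs stood in 3 of 7, against 6.2% of all. The E2F-like letters TTTGGCG, TTTCCCGC and TTTGCGC were in none of the 7 and in 3.5% of all promoters. With the 300 bases that end after the start, a window added after the first was seen, a CHR was also found in Mad2l1 and Plk1. These matches describe letters in a window, and binding was not measured.

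All 9 genes were higher in VDR-OE legs than in the empty vector legs of the same rats. The fitted log2 fold changes ran from 0.69 (Mad2l1) to 1.02 (Ccnb1), with a median of 0.84, and every one of the 9 passed an adjusted p of 0.05 in edgeR's likelihood ratio test. Among all 14526 genes tested, 10.5% were called higher and 5.06% lower, and the median log2 fold change was -0.004. Gene symbols were available only for the 1998 genes of the study's own list for VDR-OE against control muscles. In the likelihood ratio test, 100% of the named genes tested had an unadjusted p under 0.05, against 30.6% of all genes tested. Of the named genes tested, 88.9% were called (58% higher, 30.9% lower). The calls of the 9 genes in this arm therefore describe them and are not independent evidence. The contrast behind the list was not that of the VDR-KD arm. Whether VDR-KD muscles entered the fit behind it is not given in the sources used here. In 1 fit of all 28 samples, each of the 663 genes called in the VDR-OE contrast had a symbol, against 1672 of 2262 in the main fit.

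**Figure D1:**
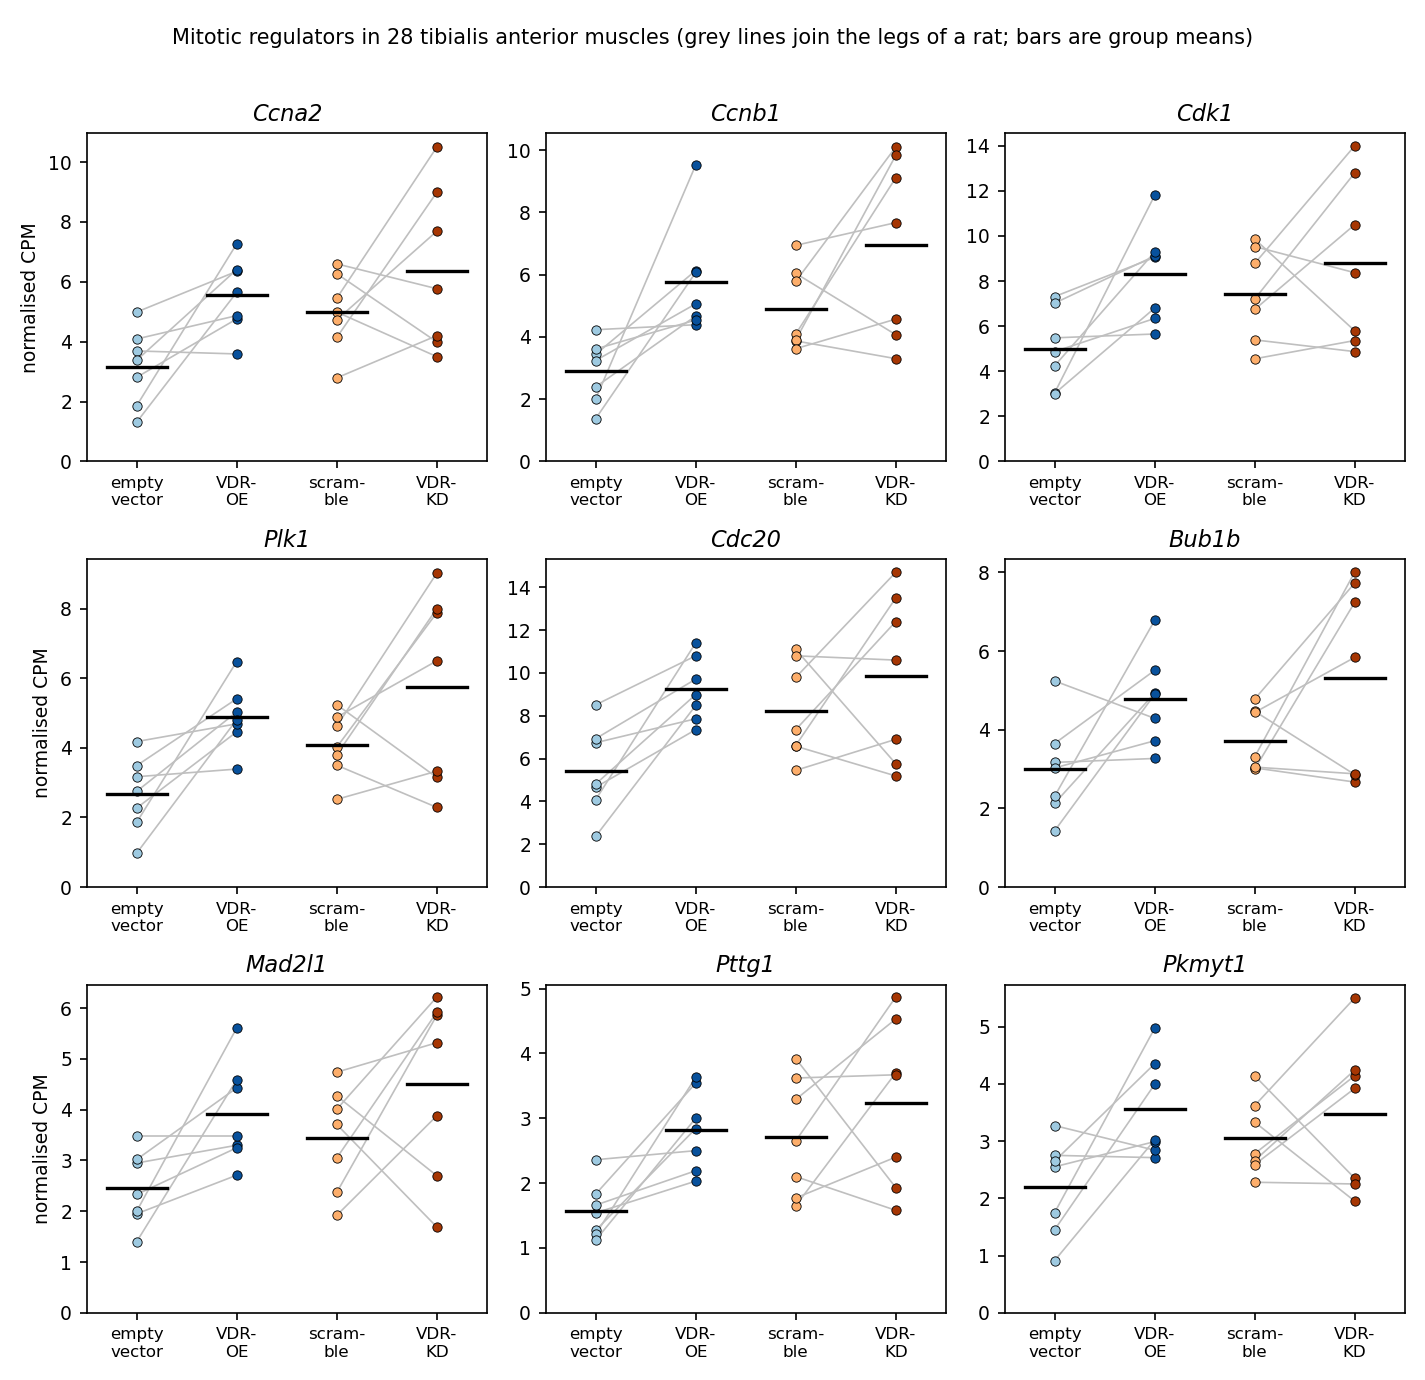
Normalised CPM of the 9 mitotic genes (vertical axes, starting at 0) in each of 28 muscles, by group on the horizontal axis. Points are muscles, grey lines join the legs of 1 rat and black bars are group means (n = 7). The empty vector legs had the lowest mean for all 9 genes, and the VDR-KD legs had the largest SD on this CPM scale.

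Of the cyclins, Ccna2 encodes cyclin A2, which partners CDK kinases in S phase and early mitosis. Its normalised level had a lowest, median and highest value of 1.31, 3.38 and 4.99 CPM in empty vector legs and of 3.59, 5.65 and 7.27 CPM in VDR-OE legs. The groups overlapped, with empty vector legs of rats 421 and 422 the lowest. Ccna2 rose by 0.89 ± 0.28 on the log2 scale (SE, adjusted p = 0.0179), a rise seen in 6 of 7 rats. Ccnb1 encodes cyclin B1, the partner of CDK1 at the onset of mitosis. It measured 1.37, 3.24 and 4.23 CPM (lowest, median, highest) in empty vector legs and 4.39, 5.06 and 9.52 CPM in VDR-OE legs. Ccnb1 was the only one of the 9 genes whose 2 groups did not overlap, where every VDR-OE leg was above every empty vector leg for 0.503% of all genes tested and 3.2% of the named genes. The rise of Ccnb1 was 1.02 ± 0.29 (adjusted p = 0.0073), in 7 of 7 rats.

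Cdk1 lay at 3.01, 4.87 and 7.31 CPM (lowest, median, highest) in empty vector legs and at 5.65, 9.05 and 11.8 CPM in VDR-OE legs. The ranges overlapped, although the control leg was the lower one in each of the 7 rats. Cdk1 rose by 0.76 ± 0.23 on the log2 scale (adjusted p = 0.014). Pkmyt1, the inhibitory kinase of the CDK1 complex, had 0.912, 2.55 and 3.27 CPM in empty vector legs and 2.71, 3.02 and 4.97 CPM in VDR-OE legs. It rose by 0.76 ± 0.28 (adjusted p = 0.0411), but was higher in 5 of 7 rats only, with ratios near or under 0 in rats 416 and 418. Plk1 measured 0.973, 2.75 and 4.18 CPM in empty vector legs and 3.39, 4.81 and 6.48 CPM in VDR-OE legs. Every rat had more Plk1 in its VDR-OE leg, and the fitted rise was 0.96 ± 0.28 (adjusted p = 0.00822).

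Among the checkpoint and anaphase genes, Cdc20, the activator of the anaphase-promoting complex, had 2.37, 4.81 and 8.51 CPM (lowest, median, highest) in empty vector legs and 7.35, 8.99 and 11.4 CPM in VDR-OE legs. Cdc20 was higher in 7 of 7 rats and rose by 0.84 ± 0.21 on the log2 scale (adjusted p = 0.00205), the smallest adjusted p of the 9 genes. Pttg1, the gene of securin, had 1.12, 1.54 and 2.36 CPM in empty vector legs and 2.03, 2.84 and 3.63 CPM in VDR-OE legs. It was likewise higher in 7 of 7 rats, and rose by 0.86 ± 0.22 (adjusted p = 0.00344). The checkpoint kinase-like gene Bub1b had 1.43, 3.03 and 5.24 CPM in empty vector legs and 3.27, 4.90 and 6.78 CPM in VDR-OE legs. Its control leg was the higher one in rat 419, and the rise of 0.74 ± 0.27 had an adjusted p of 0.0454. Mad2l1, which encodes the MAD2 checkpoint protein, had 1.40, 2.33 and 3.49 CPM in empty vector legs and 2.71, 3.49 and 5.61 CPM in VDR-OE legs. Mad2l1 rose by 0.69 ± 0.24 (adjusted p = 0.0291) in 6 of 7 rats, with a ratio of -0.001 in rat 418. The lowest read counts behind these values were in the empty vector leg of rat 422 for all 9 genes. They ran from 30 reads for Pkmyt1 (95% Poisson interval 20.2 to 42.8, which covers counting error only) to 99 for Cdk1.

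How many of the 9 genes were called depended on the test. With edgeR's quasi-likelihood test, 2 of 9 passed (Cdc20, adjusted p = 0.0406, and Pttg1, adjusted p = 0.0423) and the other 7 had adjusted p-values up to 0.0974. This test called 4.08% of all genes higher and 28.6% of the named genes, so 2 of 9 was no excess over the named genes. The fit with the rat as a block called 9, and the fit without the replicate block called 7, losing Bub1b and Pkmyt1, while the calls over all genes went from 2262 to 1390. Without rat 419, 8 of 9 were called (all but Mad2l1). Leaving out rat 417 gave 5, and leaving out rat 420, 421 or 422 gave 4 of 9. Cdc20, Pttg1 and Ccnb1 passed in each of the 7 fits that left out 1 rat. Scaled by library totals without the trimmed mean of M-values (TMM) factors, 6 of 9 were called and the share of higher genes among all calls was 87.9% in place of 67.5%. That scaling moved the median of all genes by 0.12, to 0.11, and the 9 genes then had a median 0.85 above that value.

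The size of the rise differed between rats. The mean log2 ratio of the 9 genes, VDR-OE over empty vector leg, was 0.84 ± 0.68 (SD, n = 7 rats). It was 0.11 in rat 416, 0.23 in rat 419, 0.42 in rat 418, 0.70 in rat 417, 0.90 in rat 420, 1.73 in rat 421 and 1.79 in rat 422. In rats 417, 420, 421 and 422 all 9 genes were higher in the VDR-OE leg. Of the 63 ratios in the arm 58 were above 0, but the 9 genes of a rat moved together and are not separate observations. The 2 largest ratios belonged to the 2 rats with the lowest control legs. The control leg is the denominator of the ratio, so this link is partly built in. The mean level of the 9 genes in the control leg was 0.53 log2 CPM in rat 422 and 1.09 in rat 421, and 1.40 to 2.02 in the other 5 rats. VDR-OE legs spanned 1.91 to 2.81 log2 CPM. Without rats 421 and 422, an alternative chosen after these values were seen, the mean within-rat ratios were still above 0 but smaller, from 0.33 for Mad2l1 to 0.59 for Pttg1, against 0.69 and 0.85 with them.

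**Figure D2:**
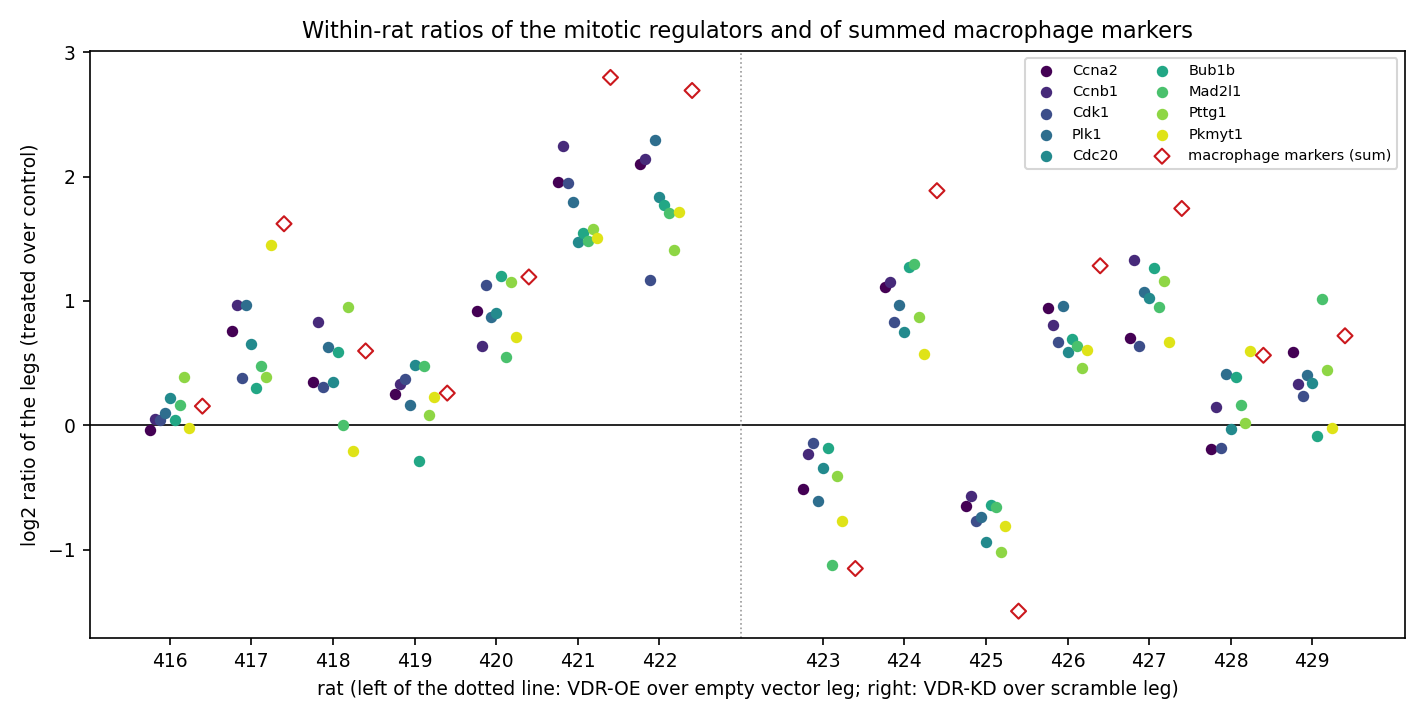
Log2 ratio of the legs (vertical axis, treated over control leg) for each of the 9 mitotic genes (filled points) and for the sum of 9 macrophage markers (open diamonds), by rat on the horizontal axis. Points of a rat lie close together, from 0.11 on average in rat 416 to 1.79 in rat 422 in the VDR-OE arm and from -0.75 in rat 425 to 0.98 in rat 424 in the VDR-KD arm, and the diamonds lie on the same side of 0 as these averages in 14 of 14 rats. Markers and mitotic genes were both named from the VDR-OE contrast, so the shared side in that arm is a description.

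Other measures moved with the mitotic genes across rats. Of 15 listed macrophage markers 9 had a symbol, and their summed level was 190.9 to 760.2 CPM in empty vector legs, 503.2 to 1570 CPM in VDR-OE legs, 491 to 1916 CPM in scramble legs and 425.5 to 2646 CPM in VDR-KD legs. The within-rat change of this sum had the sign of the mean mitotic change in 14 of 14 rats (7 of 7 in each arm), and was 2.80 and 2.69 (log2) in rats 421 and 422. All 9 of these markers were called higher in VDR-OE legs, with log2 fold changes of 1.10 to 1.49, and none was at 0 in any muscle. For markers too, a symbol came with a small p in the VDR-OE arm, where 58% of the named genes tested were called higher. The marker calls in that arm, and the signs that markers share with the mitotic genes there, are therefore a description. In the VDR-KD arm none of the macrophage, T cell or fibroblast markers with a symbol was called. T cell markers (3 of 6 with a symbol, Cd3d, Cd2 and Cd4) summed to 15.1 to 64.0 CPM in empty vector legs and 47.9 to 99.8 CPM in VDR-OE legs, and 2 of 3 were called higher. Their sum went the same way as the mitotic genes in 13 of 14 rats, 6 of 7 in the VDR-OE arm and 7 of 7 in the VDR-KD arm. In scramble and VDR-KD legs the T cell sum spanned 40.5 to 157.3 and 37.9 to 178.9 CPM. Fibroblast markers (6 of 8 with a symbol) summed to 1564 to 5268 CPM in empty vector legs, 2256 to 8634 CPM in VDR-OE legs, 2898 to 8814 CPM in scramble legs and 2636 to 8845 CPM in VDR-KD legs. All 6 were called higher in VDR-OE legs. Their sum went with the mitotic genes in 11 of 14 rats, which were 7 of 7 in the VDR-OE arm and 4 of 7 in the VDR-KD arm (all but 423, 424 and 427). Of 8 satellite cell markers only Vcam1 had a symbol, which other cells also express. It spanned 5.29 to 17.0 CPM in empty vector legs and 14.9 to 33.4 CPM in VDR-OE legs, and 10.1 to 25.3 and 7.65 to 36.2 CPM in scramble and VDR-KD legs. The TMM factor was larger in the treated leg wherever the mitotic genes were higher there, and smaller where they were lower, in 13 of 14 rats (all but 416). It ran from 0.736 to 1.16 in empty vector, 0.869 to 1.11 in VDR-OE, 0.816 to 1.14 in scramble and 0.852 to 1.44 in VDR-KD legs. The part of these measures in the mitotic values was not tested. In bulk muscle, more cells of a type and more RNA per cell cannot be told apart.

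In the VDR-KD arm none of the 9 genes was called different between VDR-KD and scramble legs. All 9 fitted log2 differences were above 0, from 0.14 ± 0.27 (Pkmyt1) to 0.43 ± 0.28 (Ccnb1), with adjusted p-values of 0.919 to 0.937 by the likelihood ratio test. None had an unadjusted p under 0.05, and none was called by the quasi-likelihood test or DESeq2. Over the 14652 genes tested, 0% were called, with 401 at an unadjusted p under 0.05, and the median difference was 0.01. The 95% interval of the difference was -0.11 to 0.97 for Ccnb1 and -0.40 to 0.67 for Pkmyt1, and the highest upper bound of the 9 was 1.01, for Mad2l1.

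The mean within-rat ratio of the 9 genes was 0.28 ± 0.69 (SD, n = 7 rats), against 0.84 ± 0.68 in the VDR-OE arm, a smaller mean with a like spread. The naming rests on the VDR-OE contrast, so this comparison of means is a description. Ccnb1 had a lowest, median and highest value of 3.62, 4.09 and 6.94 CPM in scramble legs and of 3.30, 7.67 and 10.1 CPM in VDR-KD legs. Cdk1 spanned 4.55, 7.20 and 9.86 CPM against 4.87, 8.37 and 13.98 CPM, and Plk1 2.52, 4.02 and 5.24 CPM against 2.29, 6.50 and 9.02 CPM. Groups overlapped for all 9 genes, and the VDR-KD group had the largest SD of CPM of the 4 groups for all 9. It also had the highest mean CPM for 8 of the 9, and the ranking of the SDs does not hold for every gene on the log2 scale. The mean within-rat log2 ratio of the 9 genes was -0.75 in rat 425, -0.48 in rat 423, 0.15 in rat 428, 0.36 in rat 429, 0.71 in rat 426 and 0.98 in rats 424 and 427. Rats 423 and 425 had less of each of the 9 genes in the VDR-KD leg, and rats 424, 426 and 427 had more of each. The VDR-KD legs of rats 424, 426, 427 and 428 also had the highest TMM factors of the series, 1.28 to 1.44, and their 10 most counted genes took 15.4% to 18.4% of the counts, against 24.3% to 27.5% in rats 423, 425 and 429. The part of this difference in the mitotic values was not tested.

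The remaining genes of this arm kept to the same picture. Ccna2 had 2.79, 4.99 and 6.60 CPM (lowest, median, highest) in scramble and 3.5, 5.77 and 10.5 CPM in VDR-KD legs. Cdc20 had 5.45, 7.35 and 11.1 CPM against 5.19, 10.6 and 14.7 CPM, and Pttg1 had 1.65, 2.65 and 3.92 CPM against 1.58, 3.67 and 4.87 CPM. Bub1b had 3, 3.31 and 4.78 CPM against 2.67, 5.84 and 8.01 CPM. For the checkpoint gene Mad2l1 the values were 1.92, 3.71 and 4.74 CPM against 1.69, 5.32 and 6.22 CPM, and for Pkmyt1 2.28, 2.78 and 4.14 CPM against 1.95, 3.92 and 5.50 CPM. In each of these genes the highest VDR-KD leg stood above every scramble leg, and the lowest VDR-KD leg was that of rat 423.

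Ordered by group mean, 8 of the 9 genes ran from empty vector through scramble and VDR-OE to VDR-KD legs, and Pkmyt1 had the last 2 in the other order. The means of Plk1 along this order were 2.67 ± 1.07, 4.08 ± 0.93, 4.90 ± 0.94 and 5.74 ± 2.75 CPM (SD, n = 7 each). The first step was the fall in empty vector against scramble legs, which belong to different rats and carried different constructs. All 9 genes were lower in empty vector legs, with log2 differences of -0.32 (Bub1b) to -0.80 (Pttg1), and 7 of 9 had an unadjusted p under 0.05, as did 21.5% of all genes tested and 68% of the named genes. The naming used the same empty vector legs, and the median log2 difference of the named genes was -0.36. After adjustment Pttg1 alone was called lower (-0.80 ± 0.25, adjusted p = 0.0494) where 1.85% of 14458 genes and 10.5% of the named genes were called lower, and this call was lost with the quasi-likelihood test (0 of 9) and held with DESeq2 (2 of 9). All 9 genes overlapped between these control groups. The second step, VDR-OE against scramble legs, gave log2 differences of 0.06 ± 0.23 (Pttg1) to 0.36 ± 0.19 (Bub1b). None of the 9 was called by the likelihood ratio test, the quasi-likelihood test or DESeq2, none had an unadjusted p under 0.05 in the first 2 and 1 had in DESeq2, and 0.0479% of all genes tested were called. The 95% interval for Pttg1 was -0.39 to 0.51, and its sign turned in 4 of the 14 fits that left out 1 rat. These comparisons share empty vector, VDR-OE and scramble legs with the ones above, so their values are given side by side and are not separate evidence. VDR-OE and VDR-KD legs overlapped for all 9 genes and were not tested against each other.

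**Figure D3:**
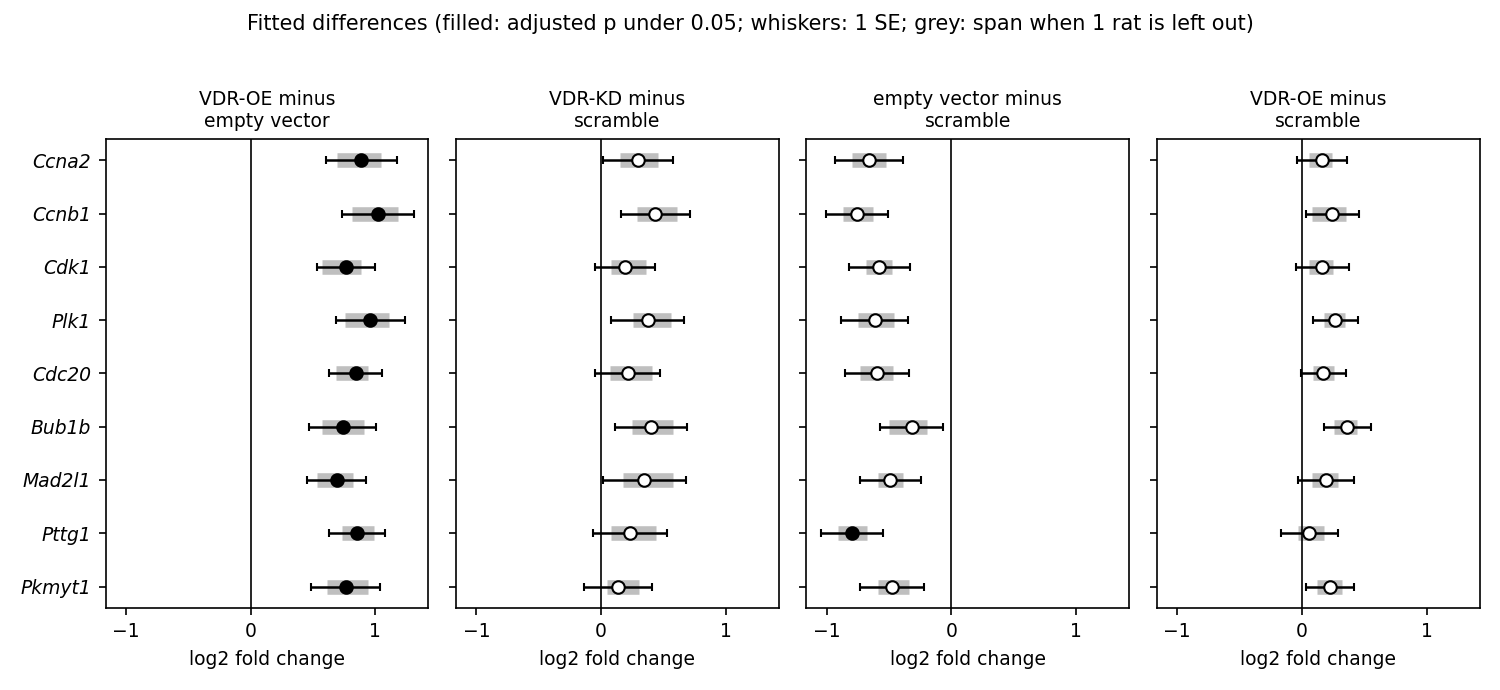
Fitted log2 fold change (horizontal axis) of each mitotic gene in 4 comparisons. Points are estimates, filled where the adjusted p is under 0.05, whiskers are 1 SE and grey bands span the fits with 1 rat left out (the rat is a block in the first 2 panels). VDR-OE legs stood 0.69 to 1.02 above empty vector legs, while they stood 0.06 to 0.36 above scramble legs, and empty vector legs stood 0.32 to 0.80 below scramble legs.

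Whether the 2 arms differed in their treated-minus-control change was tested directly, in a fit of all 28 muscles. The change was larger in the VDR-OE arm for all 9 genes, by 0.34 ± 0.40 (Bub1b) to 0.63 ± 0.34 (Cdc20), and none of these differences was called (adjusted p from 0.814 to 0.999 by the likelihood ratio test). None had an unadjusted p under 0.05, none was called by the quasi-likelihood test or DESeq2, and 0.119% of 15112 genes were called. An unadjusted p under 0.05 was seen for 30.3% of the named genes and 6.3% of all genes tested. The median difference was 0.28 for the named genes and 0.03 for all genes tested. Symbols came from the study's list for the VDR-OE contrast, so the larger change in that arm for all 9 genes is a description. For Cdc20 the 95% interval of the difference was -0.03 to 1.29, so neither equal changes nor a difference of more than 1 on the log2 scale could be set aside.

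Other cell cycle genes were counted from lists of 126 genes of mitosis and its control, of which 53 had a symbol. The lists include 23 genes for transcription of the cell cycle, not all of which act in mitosis. As for the 9 genes, a symbol came with a small p in the VDR-OE arm, so the counts there are a description. Of the 53, 46 were called higher in VDR-OE legs, 3 lower and 4 neither, where 58% of the named genes tested were called higher and 30.9% lower. The quasi-likelihood test called 9 higher and 0 lower, where it called 28.6% of the named genes higher and 21.5% lower, and the same shares apply to the list counts below. All 53 had an unadjusted p under 0.05 in that test, and DESeq2 called 46 higher and 3 lower. The median log2 fold change of all named genes was 0.48. In the VDR-KD arm 0 of the 53 were called by any of the 3 tests, 0 had an unadjusted p under 0.05 (3 with DESeq2), and 51 of 53 differences were above 0.

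Among partners and regulators of CDK1, 2 of 11 had a symbol and they moved apart. Ccnf, the gene of cyclin F, rose by 0.95 in VDR-OE legs (adjusted p = 0.00738), whereas Cdc25a, a phosphatase that activates cyclin-dependent kinases, fell by 0.58 (adjusted p = 0.0143). Neither was called by the quasi-likelihood test. Of the mitotic kinases and spindle activators (7 of 11 with a symbol), 5 rose and 2 were not called (median 0.80, and 2 calls with the quasi-likelihood test). Aurkb, the kinase of the chromosomal passenger complex, had the largest change (0.91, adjusted p = 0.00875), and Ttk, the checkpoint kinase MPS1, rose by 0.87 (adjusted p = 0.00927). The quasi-likelihood test called neither Aurkb nor Ttk. Bora, a cofactor of Aurora A, had the smallest at 0.48 (adjusted p = 0.0669).

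For the spindle checkpoint and kinetochore, 15 of 26 listed genes had a symbol, of which 12 rose, 1 fell and 2 were not called (median 0.82, and 1 call with the quasi-likelihood test). Cenpa, the centromeric histone, had the largest value without passing (1.15, adjusted p = 0.0567). Zwint, a kinetochore linker, was the one that fell (by 0.45, adjusted p = 0.0255). Both named genes of the anaphase-promoting complex list rose, Ube2c, its ubiquitin-conjugating enzyme, by 0.97 (adjusted p = 0.0175) and Fbxo5, the inhibitor EMI1, by 0.69 (adjusted p = 0.0406). The quasi-likelihood test called neither of them. All 22 named genes of 31 for the passenger complex, kinesins, condensin and cytokinesis rose (median 0.78, 6 called with the quasi-likelihood test). They ran from 0.55 for Cdca8, a passenger complex subunit (adjusted p = 0.0325), to 1.02 for Top2a, the topoisomerase of dividing cells (adjusted p = 0.000608). Birc5 (survivin) rose by 0.89 and the proliferation marker Mki67 by 0.91.

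The list of cell cycle transcription factors had 5 of 23 genes with a symbol, 4 of which rose and 1 fell. With the quasi-likelihood test 0 of these 5 were called. Mybl2, which activates G2 and M phase genes, rose by 1.23 (adjusted p = 0.011) and Foxm1, which acts with it, by 0.77 (adjusted p = 0.0295), while Tfdp2, a partner of E2F proteins, fell by 0.46 (adjusted p = 0.0211). Inhibitors of cyclin-dependent kinases and p53 targets (4 of 15 with a symbol) did not move one way. Cdkn2a and Cdkn2c, both encoding inhibitors of the G1 kinases, rose by 1.09 and 0.40 (adjusted p = 0.00561 and 0.0345). Gadd45a, a stress-induced growth arrest gene, fell by 1.04 (adjusted p = 0.000185), and Sfn, with the largest value of 1.39, did not pass (adjusted p = 0.0931). Of these 4 genes, the quasi-likelihood test called Gadd45a alone. The DNA replication and G1/S list, for comparison, had 13 of 28 genes with a symbol and all 13 rose, with a median of 0.59 against 0.84 for the 9 mitotic genes, a difference that was not tested. They ran from 0.37 for Ccnd3, a G1 cyclin (adjusted p = 0.0051), to 1.26 for Mcm5, a subunit of the replicative helicase (adjusted p = 0.0125), with Mcm6 at 1.01. Of these 13 genes, the quasi-likelihood test called 3. In the VDR-KD arm the medians of these 8 lists lay between 0.146 and 0.395 and none of their genes was called.

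**Figure D4:**
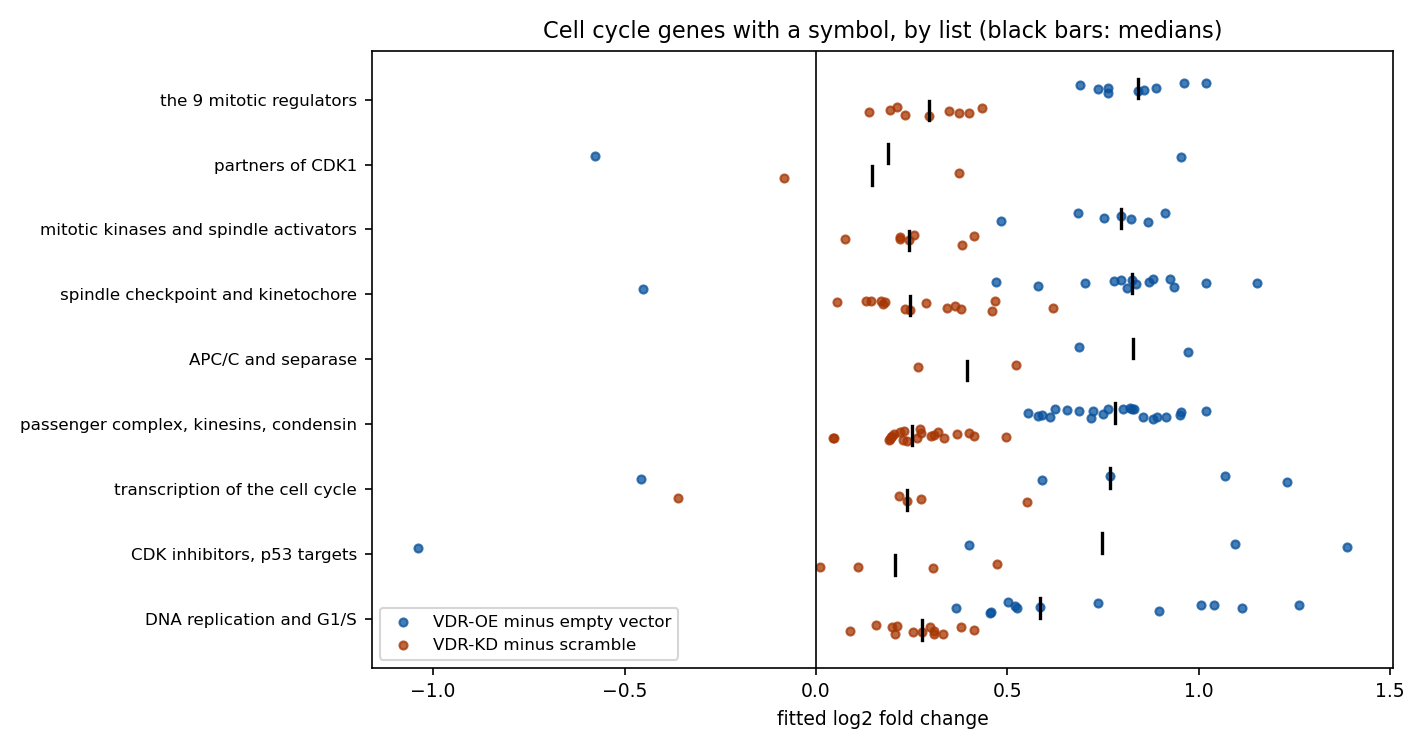
Fitted log2 fold change (horizontal axis) of the 9 mitotic genes and of the named genes of 8 lists (rows), in the VDR-OE arm (blue) and the VDR-KD arm (brown). Points are genes and black bars are list medians, which lay at 0.84 and 0.30 for the 9 genes and at 0.59 and 0.28 for DNA replication. Points of the VDR-OE arm below 0 are Cdc25a, Zwint, Tfdp2 and Gadd45a.

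Within groups the 9 genes rose and fell together from muscle to muscle. Over the deviations of 28 muscles from their group means (log2 CPM), Pearson's r between members ran from 0.65 (Pttg1 with Pkmyt1) to 0.95 (Plk1 with Cdc20), with a median of 0.87 over 36 pairs. Plk1 followed the mean of the other members most closely (r = 0.97) and Mad2l1 least (r = 0.83). Of 1921 other named genes, the 10 whose pattern was most like the mean of the 9 were Top2a (r = 0.97), Kif22, Kif20a, Cdca3, Cdkn3, Ube2c, Dlgap5, Pmf1, Ttk and Ndc80 (r = 0.94). By rank correlation 7 of these 10 were again among the first 10. Among the 100 most alike of all 15103 genes compared, 74 had a symbol. The muscles share libraries, scaling and, in pairs, a rat, and the TMM factor itself had r = 0.76 with the mean of the 9 genes.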

How the data were processed

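RNA-Seq had been performed on 28 tibialis anterior muscles (4 groups of 7, legs of 14 rats). The authors trimmed paired reads with trimmomatic, aligned and counted them with Rsubread (version not given in the sources used here) against rat genome version 6.0 with Ensembl release 89, and deposited raw counts per gene without normalisation. The submitters' notes also name bcl2fastq 2.17.1.14, FastQC 0.11.5 and edgeR 3.18.1. No strand setting was stated, so reads of overlapping antisense genes cannot be told apart. From the deposited counts, genes above the CPM of 10 counts in at least 7 samples were kept (0.238 to 0.251 CPM), and edgeR 4.0.16 (R 4.3.3) was run with TMM factors, glmFit, the likelihood ratio test and Benjamini-Hochberg adjustment over all genes tested. The rat was a block in both arms, since the legs compared come from the same animal (mean correlation of same-rat deviations 0.24 in the VDR-OE and -0.10 in the VDR-KD arm). SEs and 95% intervals were derived from each log2 fold change and its p. Within-rat ratios are log2 CPM with a prior count of 0.5. Each rat is 1 replicate. The likelihood ratio test, tested on simulated data, gave more false calls than its adjusted p states. The simulation fixed the number and size of the changes and the spread between rats. Its share of false calls therefore need not hold for the real counts.

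Symbols came only from the study's list of 1998 genes. Named were the 9 genes, Vdr, a fixed set of cell cycle genes, the highest and lowest of each list in the VDR-OE arm, and the 10 genes most like the members. Cdkn2a and Cdkn2c were added after their values were seen. Genes of the lists without a symbol were not analysed here. Members and lists were chosen with earlier results of these data known. Alternatives were the quasi-likelihood test, DESeq2 1.42.0, other normalisations and filters, no block, 1 fit of all samples, and leaving out each rat.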

Additional observations from a re-analysis of the deposited data

Results flagged for a closer look

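Ccnb1 in the VDR-OE leg of rat 421 stood far above the other 6 VDR-OE legs, at 9.52 CPM, with a gap to the next leg of 0.659 of the group's range. It was the only such case in the 60 groups of 7 values examined (levels and within-rat ratios of the 9 genes and Vdr). By chance about 1 in 20 such groups is flagged, so 1 case in 60 is no excess. The groups are not independent, since the 9 genes rose and fell together. Without rat 421 the log2 fold change of Ccnb1 was 0.81, and Ccnb1 was still called.

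The change of Vdr, treated minus control leg, differed between the arms by 8.82 ± 1.29 on the log2 scale (SE, adjusted p = 1.44e-07 by edgeR's likelihood ratio test).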

How the results depend on the processing

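All 9 genes kept a positive log2 fold change in VDR-OE against empty vector legs under every alternative run. The number called was 9 in the likelihood ratio test, with DESeq2 and with the filter passed in 2 samples. It was 8 with relative log expression factors in place of TMM, 2 with the quasi-likelihood test and 5 with all 28 samples in 1 fit. It was 6 without TMM factors, 7 without a filter and 4 to 9 when 1 rat was left out. DESeq2 called 2767 of all genes in this comparison. Over all genes the calls in this comparison went from 2262 to 1037 (quasi-likelihood), 1051 (no TMM factors), 663 (all 28 samples) and 908 (without rat 421) to 5069 (without rat 416). Without the replicate block, and so without the pairing of the legs, they were 1390 here, with 7 of the 9 genes called, and 36 in place of 18 for the difference between the arms. The causes of these shifts were not tested.

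In VDR-KD against scramble legs 0 of the 9 genes were called under any setting, and the calls over all genes were 0, but 4 with the filter passed in 2 samples, 5 without a filter and 0 to 127 (without rat 423) with 1 rat left out. For the difference between the arms none of the 9 was called under any setting, and the 18 calls over all genes became 0 (quasi-likelihood), 44 (DESeq2), 5 (no TMM factors) and 6 to 195 with 1 rat left out (421 and 423).

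For empty vector against scramble legs the single call among the 9 became 0 with the quasi-likelihood test, without a filter, without TMM factors and with all 28 samples, 2 with DESeq2, and 0 to 3 with 1 rat left out. The 441 calls over all genes became 4, 1028 (DESeq2), 61 (no TMM factors), 270 (all 28 samples) and 89 to 1539 (without rats 425 and 429). For VDR-OE against scramble legs none of the 9 was called under any setting. The 7 calls over all genes became 1 (quasi-likelihood), 20 (DESeq2), 19 (filter in 2 samples), 13 (no filter) and 4 to 32 with 1 rat left out, and the log2 difference of Pttg1 ran from -0.032 to 0.176 and so changed sign.

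With a prior count of 2 the within-rat ratios moved by less than their spread between rats. The members had 30 to 860 reads per muscle, so the depth limited Pkmyt1, Plk1 and Pttg1 most in the empty vector leg of rat 422. Bub1b and Pkmyt1 had the largest adjusted p-values of the 9 calls in the VDR-OE arm.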
